A study of Mus musculus with 8 samples.

Results

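The acetylation of histone H3 at lysine 27 (H3K27ac), which marks promoters and enhancers in use, was examined at 10 genes of the transforming growth factor β (TGF-β) pathway in mouse breast tumors. The genes are 10 of 21938 protein-coding genes. The rule names them and uses no measured value, although they were proposed with earlier results of these data known. They are the ligands Tgfb1, Tgfb2, Tgfb3 and Inhba, the latency protein Ltbp1, the receptors Tgfbr1, Tgfbr2 and Tgfbr3, and the intracellular mediators Smad3 and Smad7. For each gene, the H3K27ac peaks in the annotated gene body and 50 kb on either side of it (the window) were collected in each tumor.

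TGF-β ligands are secreted in a latent form, bound to a propeptide and to a latent TGF-β binding protein such as LTBP1 that anchors the complex in the extracellular matrix. Released ligand binds the type II receptor TGFBR2, which recruits and phosphorylates the type I receptor TGFBR1, and the activated receptor phosphorylates SMAD2 and SMAD3, which enter the nucleus with SMAD4. SMAD7 is induced by the same signal and blocks the receptor. In mammary epithelium the pathway restrains proliferation, and in carcinoma it is known as an inducer of epithelial–mesenchymal transition.

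The control group comprised 2 tumors from mice of genotype PyMT;Rag1KO, and the test group 2 tumors from K14-TSLPtg;PyMT;Rag1KO mice. All mice were on the Balb/c background. The polyoma middle T oncogene (PyMT) was driven by the mouse mammary tumor virus promoter, and the Rag1 knockout left every host without T and B cells of its own. Both groups had been injected with CD4+ T cells, which came from wild-type mice and were given at 4 wk of age. The test mice differed by a transgene, TSLP, for the cytokine thymic stromal lymphopoietin, and the keratin 14 (K14) promoter that drives it is active in basal keratinocytes of the skin. The labels name every sample a breast tumor, but in the titles the word for a test sample is cyst, and for a control it is tumor. Ages at harvest are not given in the labels.

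The peak lists held 69861 peaks in control 1 and 67850 in control 2, with 65763 in test 1 and 59762 in test 2. Peaks covered 64.3 Mb of the genome in test 2 and between 67.8 and 73.1 Mb in the other tumors. Test 2 thus had the fewest peaks and the least covered sequence, and the main counts of genes and regions called between groups are given below with and without it. The lists carry positions but no score or read count, so depth is unknown and neither peak strength nor counting error could be given. In bulk tumor tissue, fewer cells of a type and less acetylation per cell cannot be told apart. With 2 tumors against 2, an exact permutation test (two-sided) cannot go below p = 0.333, and no other test was run on these lists, which hold positions only. A gene was instead called higher in a group when both of its tumors exceeded both tumors of the other.

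All 10 genes had an H3K27ac peak within 1 kb of the transcription start site in all 4 tumors, as did 49.6% of protein-coding genes. With peaks at least 1 kb wide, 9 of 10 did so, and the exception was Inhba. The median width of the promoter peak over the 10 genes was 3616 bp in control 1 and 3427 bp in control 2, with 3505 bp in test 1 and 2712 bp in test 2. Over all genes with a promoter peak, the medians were between 1399 and 1589 bp. In test 2, 9 of the 10 genes exceeded the median of all genes, and in each other tumor 8 did. The promoters of most of these genes were thus acetylated over a broad stretch in both groups, and the genes below the median were Inhba and Tgfbr1, with Inhba above it in test 2 alone.

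The share of the window that lay in peaks ranged from 0.382% for Inhba in test 1 to 29.6% for Tgfbr3 in control 2. Tgfb1, Tgfb2, Tgfb3, Tgfbr2, Tgfbr3, Smad3 and Smad7 lay in densely acetylated windows, with at least 10.0% covered in every tumor, and Tgfbr1, Inhba and Ltbp1 in sparse ones, with at most 7.76%. The median over all 18693 genes with coverage was between 4.23% and 4.86% per tumor.

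**Figure D1:**
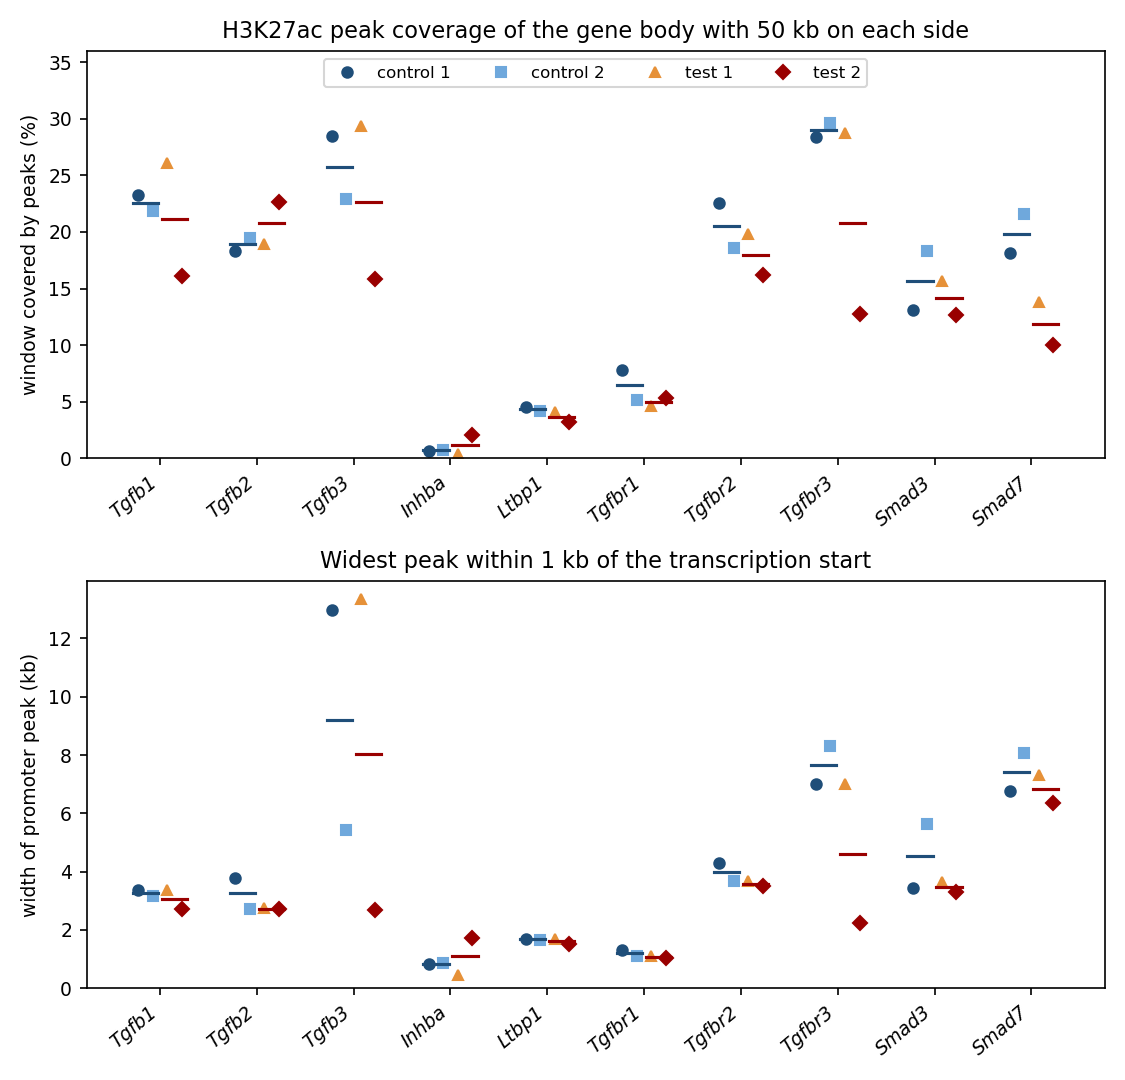
Share of each gene's window (gene body and 50 kb on each side) covered by H3K27ac peaks, in percent (upper panel), and width of the widest peak within 1 kb of the transcription start, in kb (lower panel). Each point is 1 tumor and each bar the mean of the 2 tumors of a group. In the upper panel, test 2 is the lowest tumor for 7 of 10 genes, and both control tumors lie above both test tumors for Smad7 and Ltbp1 only. In the lower panel, both control tumors lie above both test tumors for Tgfbr1 and Tgfbr3 only.

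Smad7 and Ltbp1 had higher window coverage in both control tumors than in both test tumors, 2 of 10 genes, against 13% of all genes with coverage. None of the 10 genes (0) was higher in both test tumors, against 17.3% of all genes. For the other 8 genes the groups overlapped. Within 10 kb of the transcription start, the same call was made for Smad7 and Tgfb2, against 11.6% of genes with coverage there, and for 0 genes in the test direction, against 20.9%. With 10 genes, neither count was far from these shares. Without test 2, 4 windows had higher coverage in both control tumors than in test 1, and 2 had lower, against 20.2% and 47.8% of all genes with coverage. Near the start, 4 genes were higher and 2 lower in both control tumors than in test 1, against 18% and 49.4% of all genes with coverage there.

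The mean coverage over the 10 windows was 16.5% in control 1 and 16.2% in control 2, with 16.1% in test 1 and 11.7% in test 2. The group means were 16.4% ± 0.194 (SD, n = 2) and 13.9% ± 3.15 (SD, n = 2), a difference of -2.46 percentage points for test minus control. Test 1 was close to the control tumors and test 2 was far below them. Without test 2 the difference was -0.228 points, and without test 1 it was -4.69 points. The median difference of the 10 genes was -1.52 points, beside 0.0192 points over all genes. Test 2 had the lowest window coverage of the 4 tumors at 7 of 10 genes (70%), against 43.3% of all genes with coverage. Close to the transcription start, it was the lowest at 8 of 10 (80%), against 35.5% of genes with coverage there. The lower mean of these windows in the test group was thus carried by a single tumor.

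**Figure D2:**
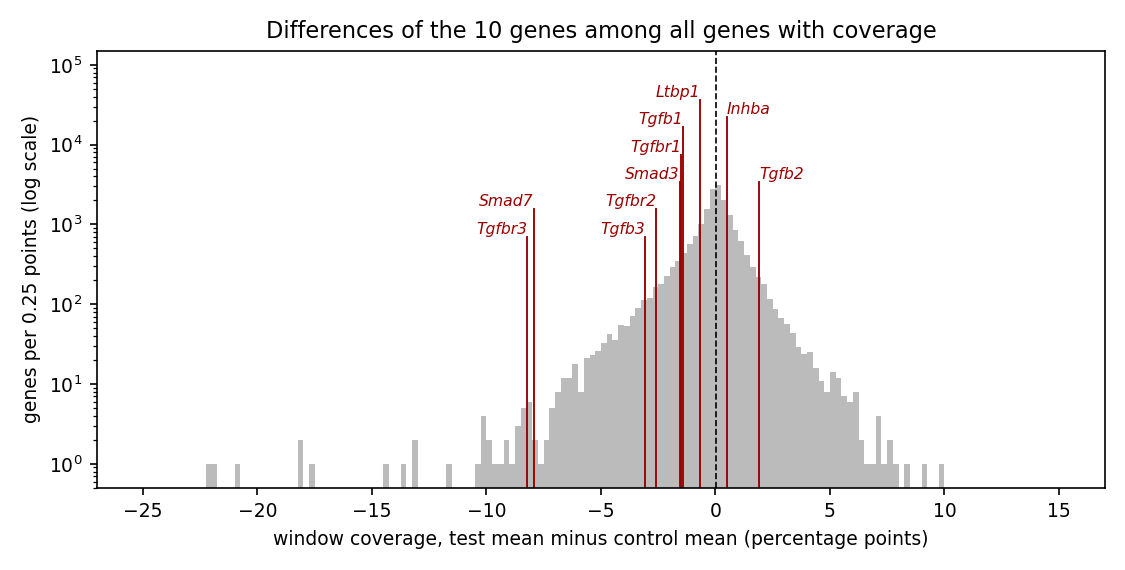
Difference in window coverage, test mean minus control mean in percentage points, over all 18693 genes with coverage (grey bars, number of genes on a log scale) and for the 10 TGF-β pathway genes (red lines, whose heights only separate the names). The dashed line is the median of all genes, 0.0192, and 8 of 10 genes lie to the left of it, Tgfbr3 and Smad7 farthest.

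Tgfb1 encodes the ligand made by most cell types. Its window on chr7:25637002-25755077 (build mm10) holds 6 other protein-coding genes, so part of its coverage belongs to their promoters. Peaks covered 23.2% of it in control 1 and 21.9% in control 2, with 26.1% in test 1 and 16.1% in test 2. The test tumors lay on either side of the controls. The mean difference of -1.43 points was smaller than the pooled SD of 5.03 points (n = 2 per group). The promoter peak was between 2729 and 3385 bp wide, narrowest in test 2.

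Tgfb2, whose product binds TGFBR2 well only with the help of the coreceptor TGFBR3, was a ligand gene with even acetylation. Its window was covered by 18.3% in control 1 and 19.5% in control 2, with 18.9% in test 1 and 22.7% in test 2, and it was the only densely acetylated window in which test 2 was the highest tumor. The mean difference of 1.91 points did not exceed the pooled SD of 1.95 points. Of its 38 acetylated regions, 15 were present in all 4 tumors and 0 were absent from test 2 alone. Near the transcription start, however, both control tumors (19.9% and 23.2%) were above both test tumors (19.2% and 17.8%).

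Tgfb3, the third ligand, had the widest promoter peak of the 10 genes in control 1 and test 1, but not in the other tumors. The peak over its transcription start was 12975 bp wide in control 1 and 5445 bp in control 2, with 13340 bp in test 1 and 2701 bp in test 2. In control 1 and test 1 it ran unbroken from inside the gene to the region upstream, and in the other 2 tumors it was broken into several peaks, as the map of peaks shows. Window coverage was 28.4%, 22.9%, 29.4% and 15.8% in the same order. Control 1 and test 1 were alike, and the difference between groups of -3.08 points was less than the pooled SD of 7.31 points. The window reaches into the neighbouring genes Ift43 and Ttll5, and 13.8 to 23.0 kb of its acetylated sequence was upstream of the Tgfb3 start.

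Inhba, which encodes the subunit of activin A, a ligand that signals through SMAD2 and SMAD3 by its own receptors, was the least acetylated. In control 1, control 2 and test 1 its window held 1 peak, at the promoter, of 827, 860 and 458 bp. In test 2 the promoter peak was 1730 bp wide and a further region of 706 bp lay in an intron, 5.84 kb from the start. Window coverage was 0.690%, 0.718%, 0.382% and 2.03%, so the 2 test tumors were the lowest and the highest, and the mean difference of 0.504 points was smaller than the pooled SD of 0.826 points.

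Ltbp1 has the longest window, 487 kb, and few peaks. Coverage was 4.50% in control 1 and 4.18% in control 2, with 4.08% in test 1 and 3.23% in test 2. Both control tumors were higher, although test 1 was just below control 2, and the difference of -0.685 points compares with a pooled SD of 0.455 points. The promoter peak was nearly the same in the 4 tumors, with 1698, 1667, 1688 and 1528 bp. At an alternative start inside the gene, a region of 1286 bp centred 173 kb from the first start was covered in full in control 2 and by 161 bp in test 2, and had no peak in the other tumors. A neighbouring region of 1707 bp, also at an annotated start, was present in control 2 alone.

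To show what lies at or beside these promoter peaks, the sequences of 4 ligand and latency gene promoters are given from RefSeq (GRCm38.p6, 250 bases before to 50 bases after the start, in the direction of transcription). By symbol, 7 of the 10 genes matched the RefSeq promoter table. Capitals mark a TATA sequence (TATAAA), a GC box (GGGCGG) or a cyclic AMP response element (CRE, TGACGTCA), each searched on both strands.
Tgfb1 promoter: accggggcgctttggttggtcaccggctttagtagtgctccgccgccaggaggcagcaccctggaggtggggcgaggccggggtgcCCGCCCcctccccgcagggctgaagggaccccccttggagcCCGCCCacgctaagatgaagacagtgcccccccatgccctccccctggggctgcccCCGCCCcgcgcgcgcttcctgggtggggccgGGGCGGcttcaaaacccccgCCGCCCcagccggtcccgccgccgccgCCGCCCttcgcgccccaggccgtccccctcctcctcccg
Tgfb2 promoter: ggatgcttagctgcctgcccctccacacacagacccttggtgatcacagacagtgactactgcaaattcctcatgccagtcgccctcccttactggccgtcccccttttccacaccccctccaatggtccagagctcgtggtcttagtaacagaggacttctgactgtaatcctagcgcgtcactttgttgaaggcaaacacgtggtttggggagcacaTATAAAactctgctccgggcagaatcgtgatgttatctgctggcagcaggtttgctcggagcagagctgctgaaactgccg
Inhba promoter: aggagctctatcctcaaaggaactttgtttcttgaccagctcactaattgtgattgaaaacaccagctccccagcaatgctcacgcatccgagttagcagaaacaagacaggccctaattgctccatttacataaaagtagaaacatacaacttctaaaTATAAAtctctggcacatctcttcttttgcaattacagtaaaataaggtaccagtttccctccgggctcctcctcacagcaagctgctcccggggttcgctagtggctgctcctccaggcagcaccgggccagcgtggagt
Ltbp1 promoter: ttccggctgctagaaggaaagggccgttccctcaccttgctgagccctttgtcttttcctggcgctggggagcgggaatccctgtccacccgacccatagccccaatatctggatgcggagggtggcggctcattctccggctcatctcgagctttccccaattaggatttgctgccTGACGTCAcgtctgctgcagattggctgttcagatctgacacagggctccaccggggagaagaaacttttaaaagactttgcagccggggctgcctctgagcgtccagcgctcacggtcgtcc
The Tgfb1 promoter (chr7:25686752-25687051, plus strand) holds 6 GC boxes and no TATA sequence, and its bases are 77.0% G or C. The Tgfb2 promoter (chr1:186705940-186706239, minus strand) and the Inhba promoter (chr13:16011601-16011900, plus strand) each hold 1 TATA sequence and no GC box, with 54.3% and 47.7% G or C. The Ltbp1 promoter (chr17:75005279-75005578, plus strand) holds 1 CRE. The printed bases did not lie under peaks to the same extent. Of the 300 bases, all were in peaks in every tumor for Ltbp1, and for Tgfb1 all were in peaks in 3 tumors and 33 were in test 2. For Tgfb2, between 116 and 197 were in peaks. The Inhba sequence was in a peak in test 2 only, since in the other tumors (0 bases each) the peak began downstream of it. Over the 32851 promoters of the table, 35.7% hold a GC box, 13.6% a TATA sequence and 1.79% a CRE. These matches describe the letters and were not tested for use by any factor.

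Among the receptors, Tgfbr1, the type I receptor, had a sparse window. Coverage was 7.76% in control 1 and 5.18% in control 2, with 4.63% in test 1 and 5.35% in test 2, with a difference of -1.49 points beside a pooled SD of 1.34 points. In each tumor but test 2 most of it lay upstream of the gene, where control 1 had 11.2 kb of acetylated sequence, control 2 6.47 kb, test 1 5.37 kb and test 2 2.43 kb, part of it in the neighbouring gene Col15a1. In the gene body the order was turned around. Peaks covered 1.48%, 1.15%, 1.62% and 4.54% of it, higher in both test tumors.

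Tgfbr2, the type II receptor that binds the ligand, had 22.6% of its window covered in control 1 and 18.6% in control 2, with 19.8% in test 1 and 16.2% in test 2. Its promoter peak was between 3499 and 4290 bp wide. Test 2 was the lowest tumor and test 1 lay between the controls, and the difference of -2.58 points was smaller than the pooled SD of 2.69 points. Of 40 acetylated regions, 16 were present in all tumors and 8 were absent from test 2 alone, 7 of them in introns. Test 2 had in turn an intronic region of 2004 bp, 67.1 kb from the start, that no other tumor had.

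Tgfbr3, the coreceptor betaglycan, was acetylated at many sites along its gene body in 3 of the tumors. In the gene body of 183 kb, peaks covered 70.4 kb in control 1 and 72.6 kb in control 2, with 71.5 kb in test 1 and 28.2 kb in test 2. Test 1 lay between the control tumors, whereas test 2 was far below all of them. Window coverage was 28.4%, 29.6%, 28.8% and 12.8%. The difference of -8.23 points compares with a pooled SD of 8.02 points, as the test tumors were far apart.

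The same was seen at single regions of Tgfbr3. The widest acetylated region in any of the 10 windows, a stretch of 14411 bp in an intron 127 kb from the start (chr5:107155103-107169513), was covered by 13934 bp of peaks in control 1 and 13241 bp in control 2, with 13010 bp in test 1 and 5345 bp in test 2. The promoter peak measured 7006, 8307 and 6999 bp in the first 3 tumors and 2243 bp in test 2. Of 70 regions in the window, 17 were present in all tumors and another 17 were absent from test 2 alone, 15 of these in introns.

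**Figure D3:**
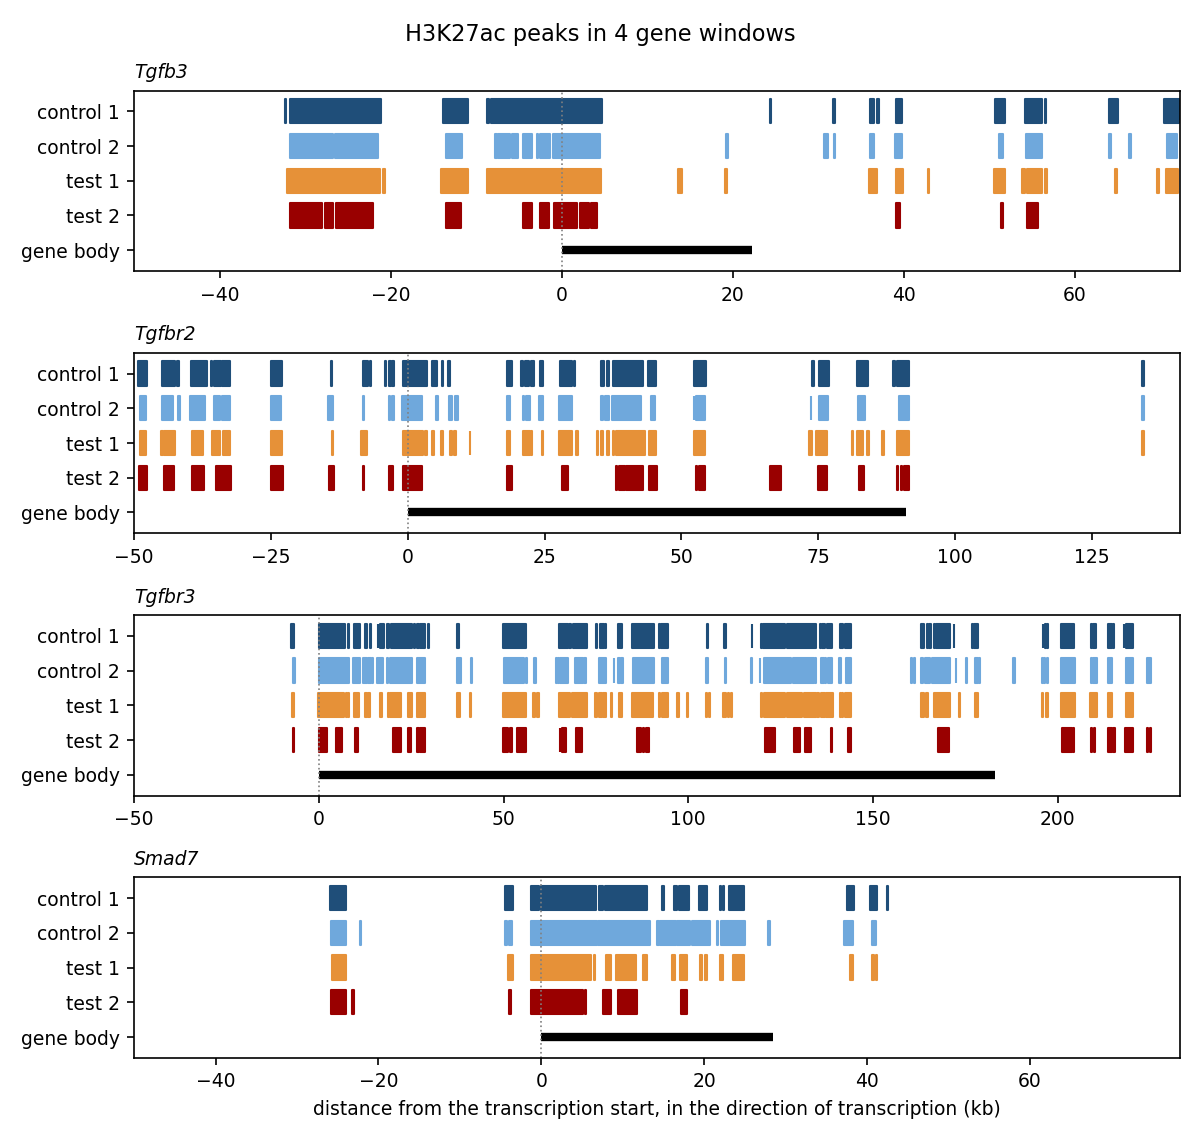
H3K27ac peaks of each tumor in the windows of Tgfb3, Tgfbr2, Tgfbr3 and Smad7, against the distance from the transcription start in kb in the direction of transcription. Colored blocks are peaks, the black bar is the gene body and the dotted line the start. Peaks of Tgfbr3 and Smad7 are fewer in test 2, while the Tgfb3 promoter domain is unbroken in control 1 and test 1 only.

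Smad3, the receptor-activated mediator, had 13.1% of its window covered in control 1 and 18.3% in control 2, with 15.7% in test 1 and 12.7% in test 2. Control 1 and test 2 were close, and so the difference of -1.55 points was smaller than the pooled SD of 3.0 points. The promoter peak was 5639 bp wide in control 2 and between 3286 and 3646 bp in the others. Of its 51 regions, 19 were shared by all tumors and 13 were seen in control 2 alone, the last between 158 and 244 bp wide.

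Smad7, the inhibitory Smad, had the larger difference of the 2 genes called between the groups. Peaks covered 18.1% of its window in control 1 and 21.6% in control 2, with 13.8% in test 1 and 10.0% in test 2. Both control tumors were above both test tumors, and the difference of -7.94 points exceeded the pooled SD of 2.55 points. In the gene body the shares were 61.2%, 78.6%, 47.1% and 32.7%, a difference of -30.1 points beside a pooled SD of 11.3 points.

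The promoter peak of Smad7 did not set the groups apart, since it was 6766 and 8079 bp wide in the control tumors and 7319 and 6351 bp in the test tumors. The groups separated farther into the gene and beyond it. At another annotated start, a region of 6368 bp centred 10.2 kb from the first start was covered by 5588 and 6368 bp of peaks in the control tumors, with 3629 bp in test 1 and 3259 bp in test 2. The intronic regions between 15.6 and 23.4 kb from the start that were 1997, 2258 and 3083 bp wide had no peak in test 2, and test 1 had less of each of them covered than either control tumor. Downstream of the gene, control 1 had 1.93 kb of acetylated sequence, control 2 1.56 kb, test 1 0.803 kb and test 2 none (0 kb). Smad7 was called without test 2 as well, since test 1 alone was below both control tumors.

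The peaks of the 4 tumors joined into 314 acetylated regions in the 10 windows. A region was counted as present in a tumor when a peak overlapped it. All 4 tumors shared 103 of them (32.8%), beside 38.1% of all 91238 regions of the genome. These 103 regions had a median width of 2108 bp, and 42 lay in introns, 27 between genes and 11 at the promoters of the 10 genes themselves.

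Regions present in both control tumors and in no test tumor numbered 11, or 3.50% of the 314, against 3.41% genome-wide. Only 1 region (0.318%) was present in both test tumors and no control tumor, against 1.47% genome-wide. The balance depended on the test tumor. Without test 2, 17 regions (5.54%) were present in both control tumors and not in test 1, and 30 (9.77%) in test 1 and no control tumor, against 5.52% and 10.6% genome-wide. Without test 1, the counts were 53 (17.8%) and 12 (4.03%), against 10.6% and 11.2%. By gene, 8 of 10 windows held a control-only region, all but those of Smad7 and Inhba, against 19% of all gene windows. A test-only region was held by 1 of 10 windows, against 10.4% of all. Without test 2, 8 windows held a region of both control tumors only and 7 a region of test 1 only, against 25.6% and 43.8% of all gene windows. Without test 1, 9 held a region of both control tumors only and 7 a region of test 2 only, against 40.4% and 38.3%. The median coverage of the 10 windows was between 12.7% and 19.0% per tumor, against 4.23% to 4.86% over all genes with coverage. The windows of Inhba and Ltbp1 lay below the median of all genes in every tumor. Neither window length nor coverage was matched in the background, and by region the control-only share was at the genome-wide level.

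Absence from test 2 alone was more frequent. It was found for 44 regions, 14% of the 314, against 6.38% of all regions. Absence from control 1, control 2 or test 1 alone was found for 5, 3 and 5 regions, or 1.59%, 0.955% and 1.59%, against 1.55%, 2.17% and 1.63% of all regions. Tgfbr3 held 17 of the 44, Tgfbr2 8, Smad3 and Smad7 5 each, and Tgfb3 3. Tgfb1, Tgfbr1 and Ltbp1 held 2 each and Tgfb2 and Inhba held 0. Of the 44 regions 30 were in introns, as were 166 of all 314, and their median width was 983 bp. None (0) was at the promoters of the 10 genes, where all 11 regions were present in all 4 tumors.

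**Figure D4:**
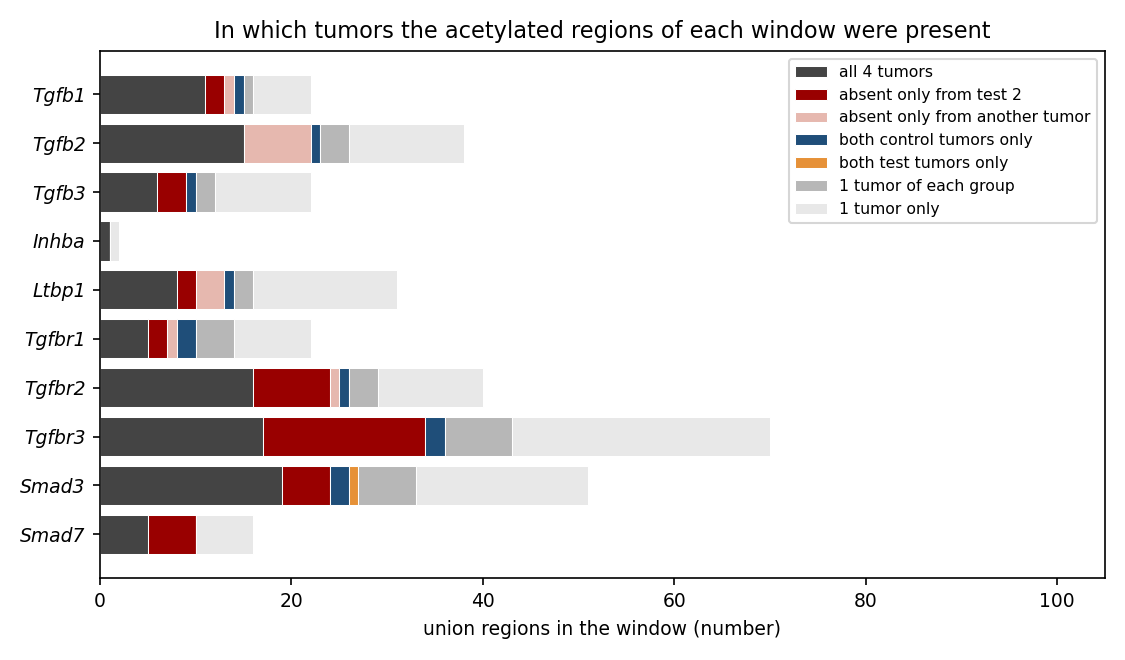
Number of acetylated regions in each gene's window by the tumors in which they were present. Regions absent only from test 2 (red) are most numerous at Tgfbr3, with 17 of 70, and lacking at Tgfb2 and Inhba, while regions of both control tumors only (dark blue) number 1 or 2 in each of 8 windows.

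The control-only regions had a median width of 471 bp, against 2108 bp for shared regions and 634 bp for all 314. Their median distance from the start was 46.8 kb, beside 46.6 kb for all 314. Of the 11, 5 lay in introns of the 10 genes, 4 in the bodies of other genes and 2 between genes. With peaks of at least 1 kb only, the regions formed anew gave 4 control-only and 0 test-only regions. The widest of the 11, 1313 bp in the body of Col15a1 (chr4:47311037-47312349, 41.5 kb upstream of Tgfbr1), was covered by 984 bp of peaks in control 1 and 435 bp in control 2.

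The nearest control-only region to a start lay 3.03 kb upstream of Tgfb1, at chr7:25683836-25684109 in the body of B9d2. A region in an intron of Tgfb2 (chr1:186658846-186659565) was 46.8 kb from its start, a region of 578 bp upstream of Tgfbr2 (chr9:116216947-116217524) was 41.9 kb from it, and a region in an intron of Ltbp1 (chr17:75342384-75342772) was 337 kb from it. In an intron of Smad3, a control-only region (chr9:63726348-63726678) and the test-only region (chr9:63724544-63724828) were neighbours, at 31.5 and 33.3 kb from the start. The former was covered by 331 bp in control 1 and 205 bp in control 2, and the latter by 167 bp in test 1 and 182 bp in test 2, so that both were narrow peaks.

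The 300 bases centred on each of these regions are given on the plus strand of GRCm38.p6, since a peak of 1 group only was called there. The other control-only regions, at Tgfb3, Tgfbr1, Tgfbr3 and elsewhere in Smad3, are not printed. The Tgfb1 region, of 274 bp, and the test-only Smad3 region, of 285 bp, are shorter, and their sequences run past both ends. Of the 300 Tgfb2 bases, 7 were in a peak in control 1 and all in control 2. Capitals mark matches to an AP-1 sequence (TGANTCA), a SMAD binding element (CAGACA) and a TEAD sequence (GGAATG), on both strands.
Tgfb1 upstream, control-only: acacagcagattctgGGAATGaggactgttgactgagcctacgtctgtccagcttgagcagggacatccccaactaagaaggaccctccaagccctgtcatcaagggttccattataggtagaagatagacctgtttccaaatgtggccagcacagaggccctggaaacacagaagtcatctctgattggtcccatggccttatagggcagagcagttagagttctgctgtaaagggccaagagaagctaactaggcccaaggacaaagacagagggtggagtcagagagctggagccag
Tgfb2 intron, control-only: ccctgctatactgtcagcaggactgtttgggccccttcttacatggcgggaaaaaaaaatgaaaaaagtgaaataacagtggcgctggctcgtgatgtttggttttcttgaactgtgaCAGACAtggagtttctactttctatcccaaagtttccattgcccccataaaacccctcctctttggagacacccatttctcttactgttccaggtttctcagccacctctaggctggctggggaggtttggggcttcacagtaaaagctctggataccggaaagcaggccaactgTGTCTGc
Ltbp1 intron, control-only: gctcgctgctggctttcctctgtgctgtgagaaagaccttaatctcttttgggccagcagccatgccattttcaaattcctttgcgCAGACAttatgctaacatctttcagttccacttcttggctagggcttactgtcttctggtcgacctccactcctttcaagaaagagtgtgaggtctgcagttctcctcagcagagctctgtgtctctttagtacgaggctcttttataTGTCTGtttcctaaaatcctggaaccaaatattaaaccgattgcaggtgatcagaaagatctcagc
Tgfbr2 upstream, control-only: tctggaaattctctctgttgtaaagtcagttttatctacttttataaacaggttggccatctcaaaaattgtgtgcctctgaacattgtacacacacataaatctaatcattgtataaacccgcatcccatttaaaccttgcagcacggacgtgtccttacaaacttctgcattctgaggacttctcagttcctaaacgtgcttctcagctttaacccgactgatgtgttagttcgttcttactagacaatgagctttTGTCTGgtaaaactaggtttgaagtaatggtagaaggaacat
Smad3 intron, control-only: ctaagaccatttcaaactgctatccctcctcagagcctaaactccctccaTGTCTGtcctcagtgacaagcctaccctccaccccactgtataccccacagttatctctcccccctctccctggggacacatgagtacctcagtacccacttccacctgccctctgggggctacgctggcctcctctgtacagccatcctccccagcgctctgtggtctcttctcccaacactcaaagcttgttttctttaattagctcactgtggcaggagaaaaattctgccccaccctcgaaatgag
Smad3 intron, test-only: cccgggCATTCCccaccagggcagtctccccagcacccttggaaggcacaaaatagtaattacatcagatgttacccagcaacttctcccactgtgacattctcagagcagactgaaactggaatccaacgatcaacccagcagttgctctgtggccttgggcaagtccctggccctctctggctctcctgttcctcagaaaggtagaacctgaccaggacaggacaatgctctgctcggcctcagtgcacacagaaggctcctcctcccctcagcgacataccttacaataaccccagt
In their printed bases, the Tgfb2 and Ltbp1 regions hold 2 SMAD sequences each, and the Tgfbr2 and control-only Smad3 regions 1 each. The Tgfb1 region holds 1 TEAD sequence. The TEAD sequence printed for the test-only Smad3 region begins outside that region, which thus held 0 complete matches. Of the 11 control-only regions, 4 (36.4%) held a SMAD sequence in the central 300 bases, 2 (18.2%) a TEAD sequence and 0 an AP-1 sequence. The control-only regions not printed held 1 TEAD sequence there, at Tgfb3, and no other match. Bases farther from the centre of a region were not searched. In the central 300 bases of all 91238 regions, the shares were 27.4%, 16.5% and 10.1%. These shares were not tested, and a match does not show that a factor was bound.

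A list of 52 other genes of the pathway and of the related activin and bone morphogenetic protein (BMP) branches was examined in the same way. Coverage was found in 50 windows, and those of the BMP antagonists Nog and Grem1 had none (0%) in any tumor. Of the 50, 6 were higher in both control tumors and 8 in both test tumors, and in 36 the groups overlapped, beside the shares of 13% and 17.3% among all genes. The balance depended on the test tumor. Without test 2, 10 (20%) were higher in both control tumors and 23 (46%) in test 1, against 20.2% and 47.8% of all genes. Without test 1, 28 (56%) were higher in both control tumors and 10 (20%) in test 2, against 46.4% and 29.9%. The median difference was -0.151 points, and 31 of the 52 genes had a promoter peak in all 4 tumors, against 49.6% of protein-coding genes.

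Higher in both control tumors were Id3, Eng, Gdf15, Tgfbi, Bmp2 and, chosen after its values were seen, the inhibitor Bambi. Id3, a target of SMAD signaling that encodes an inhibitor of helix-loop-helix factors, had 11.5% and 16.4% of its window covered in control tumors against 6.81% and 4.27% in test tumors. Eng, the coreceptor endoglin of endothelial cells, had 19.5% and 22.6% against 18.7% and 13.3%, and a promoter peak in both control tumors only. Gdf15, a stress-induced ligand of the family, had 32.0% and 32.8% against 31.6% and 24.1%, so that test 1 was close to the control tumors, and a promoter peak in control 2 only. Tgfbi, a matrix protein induced by TGF-β, differed by -0.969 points and had a promoter peak in control 1 only. Bmp2, a BMP ligand, differed by -0.219 points, with 0.278% and 0.161% against 0% in each test tumor, and had no promoter peak in any tumor. For Bambi, a decoy receptor, the difference was -0.0779 points.

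Higher in both test tumors were Nodal, a ligand of the activin branch, with 8.34% and 7.92% in control tumors against 13.4% and 9.33% in test tumors but no promoter peak in any tumor, and Smurf2, a ubiquitin ligase that acts on the receptor complex, with 7.12% and 7.57% against 8.01% and 12.0%. The type I BMP receptor Bmpr1a was higher by 1.84 points, the integrin subunit Itgav, which activates latent TGF-β, by 1.11 points and the type II activin receptor Acvr2b by 0.924 points, the last with a promoter peak in both test tumors only. By role, the counts higher in both control and in both test tumors were 2 and 1 of 13 ligands and latency proteins, 0 and 1 of 4 activators, 1 and 4 of 9 receptors, 0 and 1 of 6 Smads (Smad2), 1 and 1 of 12 inhibitors, and 2 and 0 of 8 targets. Over all genes with coverage, the shares were 13% and 17.3%. Without test 2, the counts by role became 2 and 3, 0 and 2, 1 and 7, 1 and 3, 3 and 4, and 3 and 4, against 20.2% and 47.8% of all genes. Without test 1, they became 10 and 1, 0 and 1, 3 and 4, 4 and 1, 5 and 2, and 6 and 1, against 46.4% and 29.9%.

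**Figure D5:**
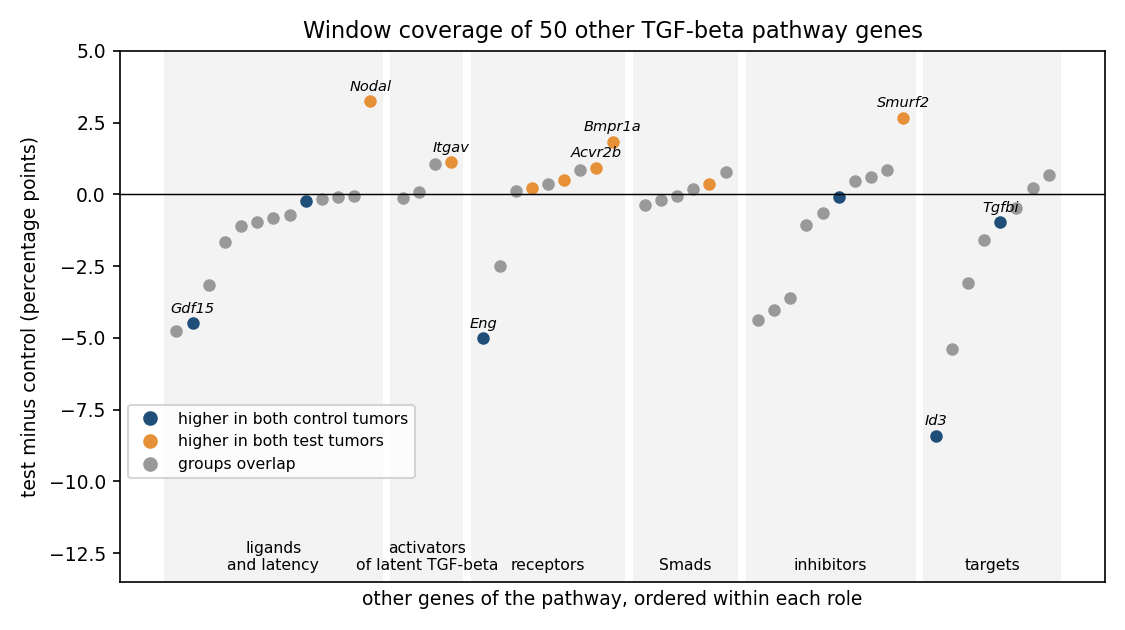
Difference in window coverage, test mean minus control mean in percentage points, for the 50 other pathway genes with coverage, ordered within each role. Colored points are genes for which both tumors of a group exceeded both of the other, 6 higher in control (dark blue) and 8 higher in test (orange), and grey points are genes with overlapping groups.

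Endothelial, fibroblast and myeloid markers had the lowest mean coverage in test 2. Mean coverage within 10 kb of the start of 12 endothelial marker genes was 4.29% in control 1 and 2.92% in control 2, with 1.65% in test 1 and 0.596% in test 2. For 12 fibroblast markers it was 5.08%, 2.95%, 2.84% and 0.852%, and for 13 myeloid markers 17.7%, 15.3%, 15.5% and 10.2%. Test 2 was the lowest tumor, without a tie, at 5 of 12 endothelial, 3 of 12 fibroblast and 7 of 13 myeloid markers. It was also the lowest at 1 of 10 T cell, 4 of 10 luminal and 4 of 8 myoepithelial markers. Over all genes with coverage near the start, the share was 35.5%. By gene, 4 endothelial, 3 fibroblast and 6 myeloid markers were higher in both control tumors, and 0, 0 and 1 in both test tumors, against 11.6% and 20.9% of genes. Of T cell, luminal and myoepithelial markers, 2, 0 and 0 were higher in both control tumors and 2, 3 and 1 in both test tumors. Without test 2, 5 endothelial, 3 fibroblast and 6 myeloid markers were higher in both control tumors than in test 1, and 0, 0 and 3 lower, against 18% and 49.4% of all genes with coverage near the start. The fibroblast count, 25% of the list, was near the first of these. Of T cell, luminal and myoepithelial markers, 2, 0 and 0 were then higher in both control tumors and 3, 6 and 3 lower.

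The 10 luminal epithelial markers had 44.9%, 42.0%, 46.1% and 43.0%, with no such order. The 8 myoepithelial markers had between 2.84% and 7.34%, and the 10 T cell markers between 0.951% and 1.68%. The T cell mean was lowest in test 2, where 1 of the 10 markers had its lowest value without a tie. In control 1, control 2, test 1 and test 2, 6, 2, 7 and 7 of the 10 were at 0. Zap70 was among those at 0 in every tumor. Also at 0 throughout were Lum, Fap and Thy1 of the fibroblast markers, Tie1, Vwf, Erg and Cldn5 of the endothelial, Adgre1 of the myeloid and Trp63 of the myoepithelial markers. The part of these cell types in the values of the TGF-β pathway genes was not tested.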

How the data were processed

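H3K27ac ChIP-seq was performed by the authors on 4 breast tumors, each with a matched input library. The 4 input samples were not analysed here. Reads were aligned to mm10 with BWA, and peaks were called in each tumor against its input with MACS2 at a q-value threshold of 0.01, according to the study's methods. The deposited lists hold peak positions in base pairs and no score, and the file names say that peaks were cleaned and merged at 200 bp. Gene positions were taken from GENCODE M21 (GRCm38). Coverage was the percent of bases of a window that lay in peaks. Overlapping or touching peaks of the 4 tumors were joined into regions, which counted as present in a tumor when a peak of it overlapped by at least 1 bp. The 5′ end of each gene served as transcription start. The 10 genes, the list of 52 pathway genes and the 6 marker lists were chosen with earlier results of these data known. All 10 genes were named, and of the pathway list the 5 with the largest difference in each direction among those called, together with lists' members at 0 in every tumor and, chosen after their values were seen, Smad2 and Bambi. Groups were taken from the genotype in the labels, and tumor numbers only name a tumor. Each tumor came from a separate mouse according to the study. A further item is not reported here. No p-value was computed. Alternatives changed the window, the peak width, the joining of peaks, the number of peaks, the scaling of coverage, the promoter and the definition of presence, and left out each tumor in turn. Calculations were made with Python 3.11.15, numpy 2.4.6, pysam 0.24.0 and samtools 1.23.1, and coverage was checked against a base-by-base count on simulated data.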

Additional observations from a re-analysis of the deposited data

How the results depend on the processing

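A promoter peak in all tumors was found for 10 genes under each alternative except peaks of at least 1 kb, which gave 9. The mean coverage difference kept its direction under each alternative tried for it. With each tumor left out in turn, that difference lay between -4.69 and -0.228 points, the latter without test 2. The 11 control-only regions became 4 with peaks of at least 1 kb, 6 with peaks within 1 kb joined, 7 with 10 kb of flank and 5 in the gene body, and 17 to 60 with a tumor left out. The test-only region count became 0 with peaks of at least 1 kb and with equal peak numbers, 2 when 50% of a region had to be covered, and 4 to 30 with a tumor left out. The 2 genes higher in both control tumors became 1 with peaks of at least 1 kb and 1 in the gene body alone, and 4 to 7 with a tumor left out. The 0 genes higher in both test tumors became 1 in the gene body alone (Tgfbr1), and 0 to 2 with a tumor left out. The 6 pathway genes higher in both control tumors became 10 to 28 with a tumor left out. The 8 higher in both test tumors became 4 with peaks within 1 kb joined, and 10 to 23 with a tumor left out. A group of 1 tumor separates from 2 more often than a group of 2, so these counts rise by construction. For single genes, 103 of 110 alternatives kept the sign of the difference, all of them for Tgfb2, Tgfbr2, Tgfbr3, Smad7 and Ltbp1. Counts without test 2 near the start and for markers, and counts with 1 test tumor left out for pathway genes, roles, all genes, windows and regions, were added after seeing the data. No paired analysis was possible because the labels give no replicate numbers (those used here follow accession order) and each tumor came from a separate mouse. Peak lists without depth limit all values, since a deeper library can give more and wider peaks.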
